A study of Bos taurus with 252 samples.

Results

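The transcripts described here belong to 3 families of pre-mRNA splicing factors and 1 partner protein, measured in the blood of feedlot cattle. They were chosen by name and by a minimum level from the gene count table: every SRSF gene with a number, every SF3A and SF3B gene with a number, every gene whose name begins with HNRNP, and PNN. A gene also had to exceed 0.2 CPM (its count scaled to a common library size) in at least 12 of the libraries, of which there were 6 for each of 42 steers. This minimum was the only measured value in the rule, but the families were chosen with earlier results of these data known. All 41 genes of these names passed, out of 19056 that passed in the whole table of 33282 genes. They were 11 SR genes, 20 hnRNP genes, 3 SF3A genes, 6 SF3B genes and PNN. In 40 of the 41 the minimum was exceeded in every library. The member nearest the minimum was SF3B6, which exceeded it in 239 libraries and ranged from 0.0318 to 37.4 CPM. SRSF12 was next, with 0.511 to 5.66 CPM, and no gene of these names lay outside.

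Introns are removed from pre-mRNA by the spliceosome, and these families act at its early steps. SR proteins bind exon sequences and generally favour the use of nearby splice sites, whereas hnRNP proteins coat nascent transcripts and often oppose it. The SF3A and SF3B complexes are parts of the U2 snRNP, the particle that recognises the branch point of the intron, and pinin, the product of PNN, is an SR-related protein that joins the exon junction complex. In blood these proteins are broadly present in nucleated cells, and the balance among them shapes the isoforms that leukocytes make.

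The study asked whether the antimicrobial given to cattle at feedlot arrival changes the blood transcriptome. Blood was drawn into PAXgene tubes from 42 crossbred steers on day 0, on days 3, 7 and 14, and on days 21 and 56, and sequenced as stranded mRNA libraries. There were 7 groups of 6 steers. The negative control (NC) received no antimicrobial. The other steers were given 1 dose of a drug: the cephalosporin ceftiofur (CEFT), the fluoroquinolone enrofloxacin (ENRO), the phenicol florfenicol (FLOR), oxytetracycline, a tetracycline (OXYT), or the macrolides tildipirosin (TILD) and tulathromycin (TULA). The day 0 sample preceded the administration. All steers, NC included, had been given tildipirosin, a hormone implant, vaccines and dewormers at the start of backgrounding, and each group was kept in 1 pen, so pen and treatment cannot be told apart. Ages of the steers were not given in the sources used here.

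Libraries held 26073640 to 74110289 counts (median 43608836), and hemoglobin transcripts took 0.00405% to 25.5% of a library. The 6 libraries of each of the 42 steers were sequenced on the same lane, so lane does not enter a comparison of days within steers. NC and ENRO steers were all on lane 1, TULA on lane 2, CEFT and OXYT on lane 3, and FLOR and TILD were divided between lanes, so that lane and treatment cannot be told apart for CEFT, OXYT, TULA and TILD against NC. Of the defining markers of blood cells, CD3D (T cells), CXCR2 (neutrophils), CD14 (monocytes) and HBB (erythroid cells) were measured and tested, whereas CSF3R, EPX and GP1BB were not in the table. CEFT steer 4 on day 3 and CEFT steer 6 on day 56 stood apart from the other CEFT libraries of their day. In the first, SF3A2 reached 145.8 CPM and SF3B4 150.8 CPM, and in the second SF3B1 reached 727 CPM, each the highest value of all 42 steers on that day. Results without both libraries are given only for the change from day 0 by limma voom. The CEFT comparison with NC on day 3 is also given without single steers.

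Most members were measured with little spread. The coefficient of variation over all libraries had a median of 12.7% and was lowest in HNRNPF (6.5%), which binds G-rich intron and exon sequences. Differences among steers took a median of 33.4% of a member's variance and differences among days a median of 15.5%. The share taken by day was largest in SF3B1 (42.9%) and SRSF11 (42.2%), and smallest in HNRNPA3 (1.18%).

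A few members varied far more. SF3B6 encodes p14, the small subunit of SF3B that contacts the branch point adenosine. Its coefficient of variation was 114.4%. Its counts ran from 1 to 1835 per library, with 53 libraries under 1 CPM and 70 above 10 CPM. Within a single steer the highest day exceeded the lowest by 3.14-fold to 507.8-fold, with a median of 24.5-fold over the 42 steers. SF3B1 gives a comparison from the same complex, with a range within a steer of 1.32-fold to 2.61-fold. SF3B6 covers the same stretch of the genome as part of FKBP1B in the RefSeq annotation of ARS-UCD2.0, a later build than that of the counts, but its level did not follow FKBP1B (Spearman rho -0.06 over all libraries, which share steers and days). The lowest of these ratios for SF3B6 was above the highest for SF3B1.

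HNRNPA3, an hnRNP of the A and B group, ranged from 13.7 to 287 CPM with a coefficient of variation of 51.6%. A neighbouring row of the table, which RefSeq assigns by accession to the microRNA gene MIR4444 overlapping HNRNPA3 in ARS-UCD2.0, ranged from 46.5 to 421.3 CPM. The rows moved in opposite directions over all libraries (Spearman rho -0.81). Their sum ranged from 179.6 to 486.5 CPM, with a coefficient of variation of 13.9%, near the median of the members. The table lists the counts of the overlapping row apart from those of HNRNPA3, and how reads were divided between them was not tested. SRSF12 and SRSF1, the founding SR protein, also had wide ranges, with coefficients of variation of 40.6% and 33.7%, and SRSF1 ran from 25.6 to 141.2 CPM.

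**Figure D1:**
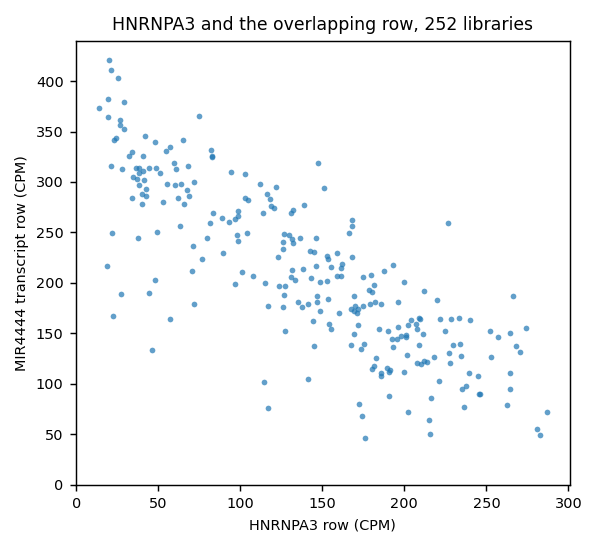
CPM of the HNRNPA3 row (horizontal axis) against CPM of the overlapping MIR4444 row (vertical axis), 1 point for each library. The points fall along a descending band: libraries with high HNRNPA3 have low values in the other row (rho -0.81).

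The level of the splicing factors changed over the 56 days after arrival. The effect of day, tested within steers with the quasi-likelihood F test of edgeR on the 5 later days together, passed an adjusted p of 0.05 for 39 of the 41 members, against 80.4% of all genes tested. HNRNPA3 (adjusted p 0.898) and SRSF1 (adjusted p 0.299) did not pass. Against day 0, 25 members passed on day 3, where 42.1% of all genes did. The counts were 18 for day 7 (background 46.8%), 30 for day 14 (65%), 36 for day 21 (66.4%) and 31 for day 56 (65.4%). Falls outnumbered rises. They were 21 falls and 4 rises on day 3, 24 and 6 after 14 days, 23 and 13 after 21 days, and 20 and 11 by day 56, whereas the 18 calls of day 7 were 10 falls and 8 rises. Among all genes 20.2%, 31.2%, 32.8% and 31.9% fell and 22%, 33.8%, 33.6% and 33.5% rose on those 4 days, against 21.3% and 25.5% on day 7, and the median log2 fold change of the members was between -0.09 and 0, against 0.02 to 0.03 over all genes. The changes were averaged over 7 groups, of which 6 had been given a drug, so day and drug are mixed in them. In whole blood a lower level can mean fewer cells of a type or less RNA per cell, and these cannot be told apart.

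**Figure D2:**
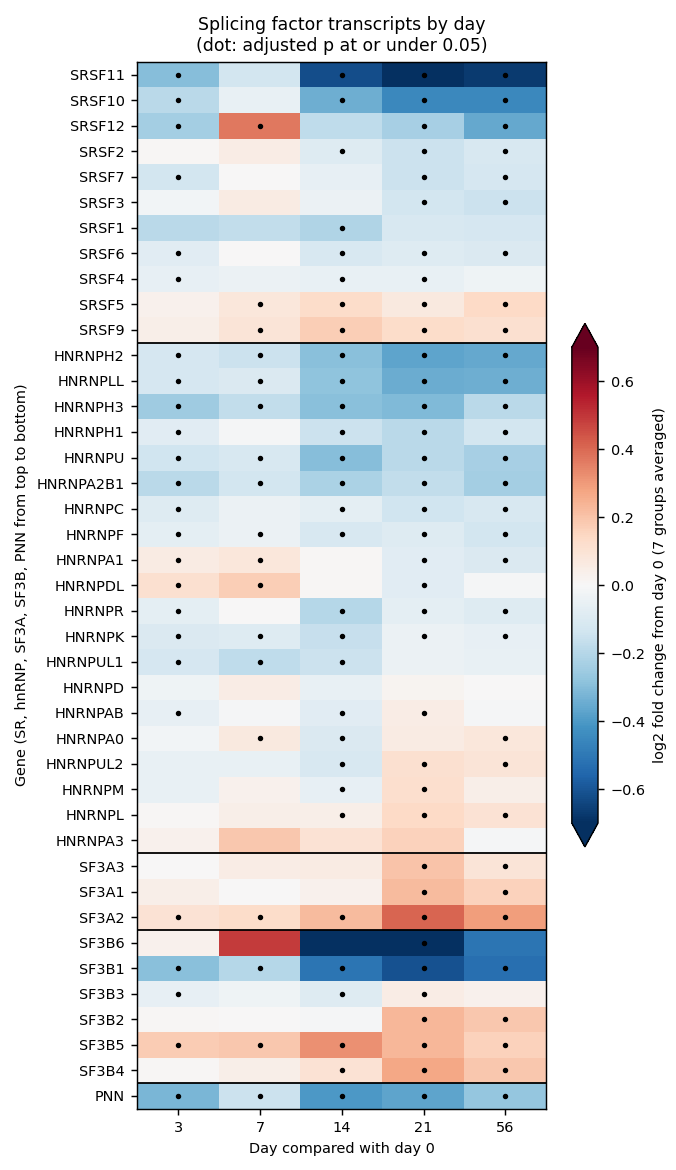
Log2 fold change from day 0 for each of the 41 members (vertical axis) on days 3 to 56 (horizontal axis), averaged over the 7 groups, with a dot where the adjusted p was at or under 0.05. SRSF11, SF3B1, SRSF10 and PNN are lower on all 5 days, the SF3A genes are higher on day 21, and SF3B6 is beyond the end of the colour scale.

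SR genes fell more often than they rose. On day 21, 10 of 11 passed, of which 8 fell and 2 rose, and their median log2 fold change was -0.13. SRSF11, an SR-related splicing protein also called p54, had the largest fall of the family. It measured 107.3 to 216.8 CPM on day 0 (median 146, 42 steers), a median of 123 on day 3 and 134 on day 7, and 50.9 to 149.8 (median 88.5) on day 21. The ranges of days 0 and 21 overlapped, although most steers moved from the upper to the lower range. The log2 fold change on day 21 was -0.71 ± 0.06 (SE, edgeR adjusted p 9.19e-23), with 41 of 42 steers lower, and -0.67 on day 56.

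SRSF10 represses splicing when dephosphorylated, as after heat shock, and it followed a similar course. Its level went from 97.7 to 181.9 CPM on day 0 (median 124) to 50.2 to 139.1 (median 90.8) on day 21. Its log2 fold change was -0.45 ± 0.04 (edgeR adjusted p 2.66e-20), lower in 41 of 42 steers. SRSF12, a close relative of SRSF10, moved in both directions. It rose by a log2 fold change of 0.37 ± 0.08 on day 7 (median 2.43 CPM against 1.92 on day 0, edgeR adjusted p 7.15e-05) and had fallen on day 56 (-0.36 ± 0.09, median 1.53 CPM).

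The SR genes that rose were SRSF5 and SRSF9. SRSF9 rose on days 7, 14, 21 and 56 and was furthest from day 0 on day 14, where its log2 fold change was 0.17 ± 0.02 with 38 of 42 steers higher (edgeR adjusted p 1.78e-12). SRSF5 reached 0.14 on day 56, with 32 of 42 steers higher. SRSF2, SRSF3, SRSF6 and SRSF7, which recognise distinct exonic enhancers, fell by 0.15, 0.13, 0.09 and 0.15 on the log2 scale on day 21. SRSF4 had the smallest change of the called SR genes, with no day beyond -0.06 and a median of 134.5 CPM on day 0 against 129 on day 21.

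Among the 20 hnRNP genes, 12 fell and 4 rose on day 21, with a median log2 fold change of -0.08. The F and H group, whose proteins bind G-rich sequence, was lower from day 3 onward with the exception of HNRNPH1 on day 7. HNRNPH2 went from a median of 71.5 CPM on day 0 (53.3 to 84) to 54.3 on day 21 (33 to 74.5), a log2 fold change of -0.37 ± 0.04 with 38 of 42 steers lower (edgeR adjusted p 1.94e-17). HNRNPH3 was 106 to 154.5 CPM on day 0 (median 121.1) and 76.1 to 119.3 on day 21 (median 99.3). All 42 steers were lower, and its log2 fold change was -0.31 ± 0.03 (edgeR adjusted p 5.77e-22). It was the only member to rise from day 21 to day 56 past the threshold (0.12 ± 0.03, edgeR adjusted p 8.49e-04).

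HNRNPLL, known as the regulator of CD45 exon exclusion in activated T cells, had a median of 24.7 CPM on day 0 and 19.4 on days 21 and 56. Its log2 fold change on day 21 was -0.35 ± 0.04 with 39 of 42 steers lower (edgeR adjusted p 2.46e-14). Its paralog HNRNPL moved the other way. HNRNPL had a median of 351.7 CPM on day 0 and 397.5 on day 21, a log2 fold change of 0.14 ± 0.02 with 39 of 42 steers higher (edgeR adjusted p 7.68e-15). Over all libraries the levels of the paralogs were opposed (Spearman rho -0.61, and -0.39 among deviations within steers after treatment-by-day means were taken out).

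Other hnRNP genes differed in the day on which they stood furthest from day 0. HNRNPK, a poly(C) binding protein, was lower on all 5 days and lowest on day 14, with 414.8 to 585.4 CPM (median 511.5) against 496 to 637.6 on day 0 (median 559.7). The ranges overlapped, with 35 of 42 steers lower (log2 fold change -0.16 ± 0.02, edgeR adjusted p 8.11e-15). HNRNPR was also furthest from day 0 on day 14 (-0.20 ± 0.03, 35 of 42 steers lower). HNRNPC, which packages nascent transcripts as a tetramer, was furthest on day 21 (-0.14 ± 0.02, 35 of 42 steers lower). HNRNPUL1 was lower on days 3, 7 and 14, by 0.12, 0.18 and 0.15 on the log2 scale, and did not pass on day 21 (-0.04) or day 56 (-0.05).

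HNRNPA1 and HNRNPDL turned from higher to lower. HNRNPA1, which often opposes SR proteins at exons, had medians of 683.6 CPM on day 0, 729.2 on day 3 and 734.8 on day 7, and 650.6 and 629.1 on days 21 and 56. Its log2 fold change was 0.08 ± 0.03 on day 7 (29 of 42 steers higher, edgeR adjusted p 0.00536) and -0.10 ± 0.03 on day 56 (31 of 42 lower, edgeR adjusted p 2.90e-04). HNRNPDL, a relative of HNRNPD, was at 0.17 ± 0.03 on day 7 with 35 of 42 steers higher, and at -0.08 ± 0.03 on day 21 with 25 of 42 lower. The 2 members that did not pass over the 5 days together had wider errors: SRSF1 was at -0.21 ± 0.09 on day 14, with 24 of 42 steers lower. Day 14 taken alone did pass for SRSF1 (edgeR adjusted p 0.0488).

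HNRNPU, a scaffold protein of the nuclear matrix that also regulates U2 snRNP maturation, was lowest on day 14, with 277.4 to 439.6 CPM (median 356.8) against 368.5 to 520.1 on day 0 (median 423.7). The ranges overlapped, and 40 of 42 steers were lower (log2 fold change -0.30 ± 0.02, edgeR adjusted p 1.88e-28). HNRNPA2B1 was lower on all 5 days, between -0.13 and -0.24. HNRNPM, HNRNPUL2 and HNRNPAB, in contrast, were above day 0 on day 21, by 0.12, 0.11 and 0.05. HNRNPD, the AU-rich element binding protein AUF1, moved least of the members that passed the test of any day effect. Its medians by day lay between 225.1 and 234.5 CPM, and its log2 fold change was at most 0.05 in size.

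The SF3A genes rose together on days 21 and 56. SF3A1, SF3A2 and SF3A3, which encode the 3 subunits of the complex, all passed as higher on both days, and the median of their log2 fold changes was 0.22 on day 21 and 0.16 on day 56. SF3A2 had the largest rise. It measured 45.4 to 90.7 CPM on day 0 (median 66.7), had medians of 69, 71.9 and 77.5 on days 3, 7 and 14, and ranged from 60.7 to 139.6 (median 88) on day 21. The ranges overlapped, with 40 of 42 steers higher, and the log2 fold change was 0.41 ± 0.04 (edgeR adjusted p 9.44e-19). SF3A1 and SF3A3 changed by 0.22 and 0.20 on day 21 (35 and 39 of 42 steers higher), and neither passed the test on days 3, 7 or 14.

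The SF3B genes moved in both directions. On day 21 all 6 of its transcripts passed, 4 higher and 2 lower. SF3B1, the large subunit that clamps the branch point helix, had the largest fall of the SF3B genes after SF3B6. Its level was 445.2 to 803.1 CPM on day 0 (median 562.2), with medians of 469.6, 503.8 and 394.7 on days 3, 7 and 14, and 232.7 to 542.2 (median 375.9) on day 21. All 42 steers were lower on day 21 than on day 0, with a log2 fold change of -0.61 ± 0.04 (edgeR adjusted p 8.35e-30), and 41 of 42 were lower on day 56 (-0.53).

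SF3B4, which contacts the pre-mRNA beside the branch point, rose from a median of 85.1 CPM on day 0 to 103.5 on day 21. The log2 fold change was 0.27 ± 0.03 with 39 of 42 steers higher (edgeR adjusted p 8.22e-16). SF3B2, the partner of SF3B4, was at 242.7 CPM on day 0 and between 241.3 and 247.2 on days 3 to 14, and at 291.9 on day 21 (0.23, 39 of 42 steers higher). SF3B5, a small structural subunit, was higher on all 5 days, with its largest log2 fold change on day 14 (0.32 ± 0.04, 35 of 42 steers higher). SF3B3 fell by 0.09 on day 14 and stood 0.05 above day 0 on day 21.

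SF3B6 had the largest fold change of all members and a wide error. Its median went from 5.87 CPM on day 0 (0.0944 to 35.8) to 2.03 on day 21 (0.0533 to 28.9), so the ranges were nearly the same. The log2 fold change was -1.02 ± 0.36 with 28 of 42 steers lower (edgeR adjusted p 0.00899). In the 6 NC steers alone it was 1.67 ± 0.87, in the other direction, without passing the test.

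PNN was lower on all 5 days. Its median was 79.5 CPM on day 0 (61.3 to 111.6). It was 65.6 on day 3 and 74.5 on day 7, and reached 60.6 by day 14 (38.7 to 103.4) and 66.2 by day 56. The fall was largest on day 14, where the log2 fold change was -0.40 ± 0.04 with 39 of 42 steers lower (edgeR adjusted p 2.16e-19).

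**Figure D3:**
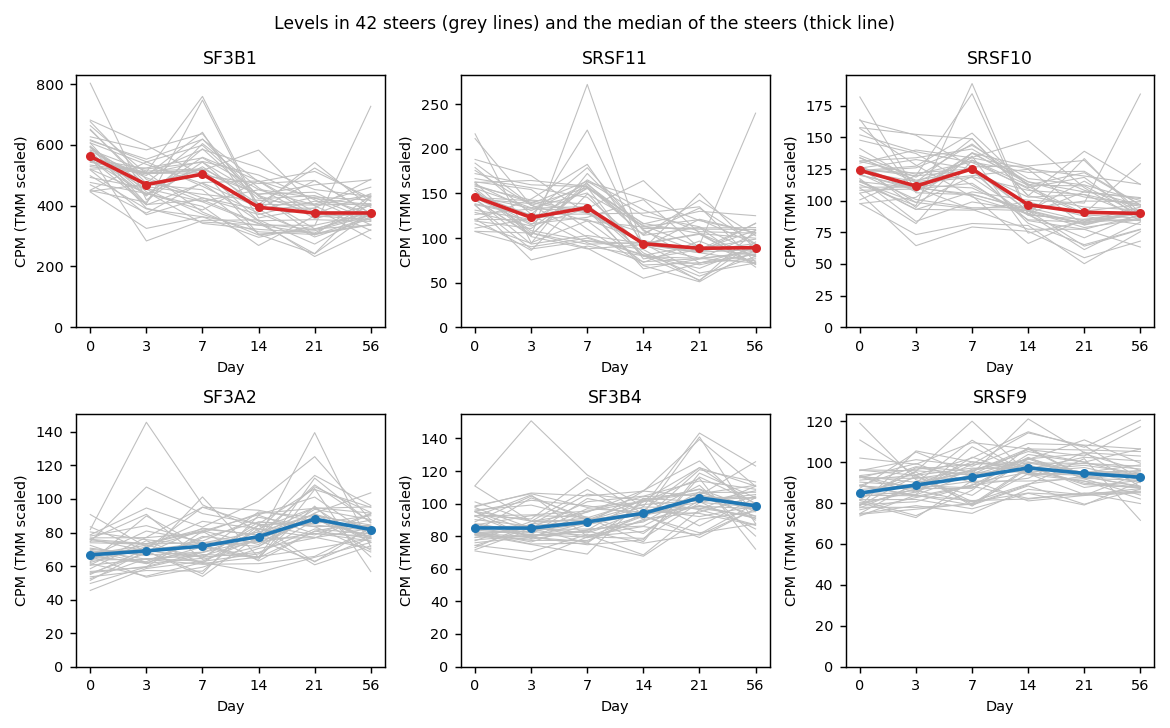
CPM (vertical axis, from 0) by day (horizontal axis, days evenly spaced) in 6 members, with a grey line for each of 42 steers and a thick line for their median. The medians of SF3B1, SRSF11 and SRSF10 stay below day 0 from day 14, whereas those of SF3A2 and SF3B4 climb to day 21.

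The course was not steady. Between days 3 and 7, averaged over treated and NC groups, 12 members changed and all 12 rose (background 23.1% of genes in either direction, 10.7% rose and 12.4% fell). Among them were SRSF12 (log2 fold change 0.61 ± 0.08), PNN (0.17 ± 0.04) and SRSF11 (0.17 ± 0.06). In NC steers alone, PNN and SRSF11 were lower on day 7 than on day 3. Against day 0, PNN was at -0.05 and -0.22 on these days in NC, SRSF11 at -0.04 and -0.18, and SRSF12 at -0.05 and 0.02. The step was not tested in NC steers alone. Between days 7 and 14, 29 members changed (background 49.4%), of which 26 fell (background 23.3%), SRSF11 by 0.49, SF3B1 by 0.31, SRSF10 by 0.30 and PNN by 0.25 on the log2 scale, and the 3 that rose (background 26.2%) were SF3A2, SF3B5 and SRSF9. Between days 14 and 21, 20 members changed (background 14.7%, 7.93% higher and 6.79% lower) and 16 of them rose, with SF3B2 (0.24 ± 0.03), HNRNPUL2 (0.22 ± 0.02), SF3A1 (0.19 ± 0.04) and SF3A2 (0.19 ± 0.04) ahead of the others. SRSF11 and SF3B1 did not pass in that step (edgeR adjusted p 0.342 and 0.121). Only 4 members changed between days 21 and 56 (background 8.14%, 4.55% higher and 3.59% lower): HNRNPH3 rose, and HNRNPM, SF3A2 and SF3A3 fell.

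Several members with large changes had the same direction in every group, although SF3B6, with the largest, was lower in 6 groups and higher in 1 on day 21. SF3B1 was lower than on day 0 in all 7 groups on day 21, with group log2 fold changes from -0.91 to -0.41, and SRSF11 in all 7 from -1.05 to -0.44. SF3A2 was higher in all 7 on day 21, from 0.26 to 0.74, and SF3B4 from 0.13 to 0.44. In NC steers alone, with 6 steers, edgeR called 0 members for day 3 (0.373% of all genes) and 0 for day 7 (3.63%). For days 14, 21 and 56 it called 11 (30.2%), 9 (24.9%) and 13 (30.8%). At an unadjusted p under 0.05 the counts on days 3 and 7 were 2 and 2. The members with the largest falls on day 3 in all steers changed less in NC steers. PNN was at -0.05 ± 0.1 in NC (-0.32 in all steers) and SRSF11 at -0.04 ± 0.16 (-0.3). SF3B1 was at -0.13 ± 0.11 in NC (-0.29) and HNRNPH3 at -0.05 ± 0.07 (-0.25). Of the 25 members called on day 3 in all steers, 22 had the same direction in the NC steers. Of the 36 members called on day 21 in all steers, 31 had the same direction in the NC steers. When the HNRNPA3 and MIR4444 rows were added together, an alternative chosen after seeing the data and tested with limma voom, the sum was lower on day 14 (log2 fold change -0.16 ± 0.03, adjusted p 3.18e-06), day 21 (-0.13 ± 0.03, adjusted p 1.34e-04) and day 56 (-0.19 ± 0.03, adjusted p 6.05e-08), whereas HNRNPA3 alone had log2 fold changes of 0.11, 0.19 and -0.07 with SEs of 0.2 in the same test.

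Cell type markers changed over the same days. Of 7 measured neutrophil markers, 6 fell on day 21 (median log2 fold change -0.85), and all 6 monocyte markers fell (-0.68). Of 9 T cell markers 7 rose (0.42), and of 7 B cell markers 6 rose (0.40). Erythroid markers had a median log2 fold change of 1.72 on day 14. The summed T cell markers ranged from 1215.7 to 2480 CPM on day 0 and from 1708.2 to 3650.3 on day 21, and the summed neutrophil markers from 1012.2 to 3789.7 and from 505.2 to 2118.5. Over all libraries SRSF11 and SF3B1 were opposed to the T cell sum (Spearman rho -0.66 and -0.60), and SF3B4 and SF3A2 went with it (0.56 and 0.51). The other sums gave weaker values. For SRSF11 and SF3B1 they were 0 and 0.08 (neutrophil), 0.30 and 0.30 (monocyte), and -0.30 and -0.31 (erythroid). For SF3B4 and SF3A2 they were -0.16 and -0.19 (neutrophil), -0.27 and -0.28 (monocyte), and 0.15 and 0.16 (erythroid). These are descriptions over libraries that share steers and days, and the part of cell composition in the changes of the splicing factors was not tested.

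Members formed opposed sets across libraries. SF3B1 and SRSF11 had a Spearman rho of 0.92 over all libraries, and 0.88 among deviations within steers after treatment-by-day means were taken out, and SRSF10 and SRSF11 had 0.92 in both. SF3A2 and SF3B4 were alike at 0.90, and SF3A1 and SF3B2 at 0.85. SF3A2 and SF3B1 were opposed at -0.74. SF3B1 did not vary with every SR transcript, with values of 0.22 for SRSF4 and -0.51 for SRSF9. SRSF1 and HNRNPA3 had no member with a rho above 0.16 and 0.14. Among all genes, the pattern of SRSF11 was most like that of SREK1 (0.96), which encodes a further SR-related protein, and that of SF3B1 most like that of CCNL1 (0.94), cyclin L1. PNN was most like HNRNPH3 (0.79), and SF3B6 most like LSM5 (0.75).

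**Figure D4:**
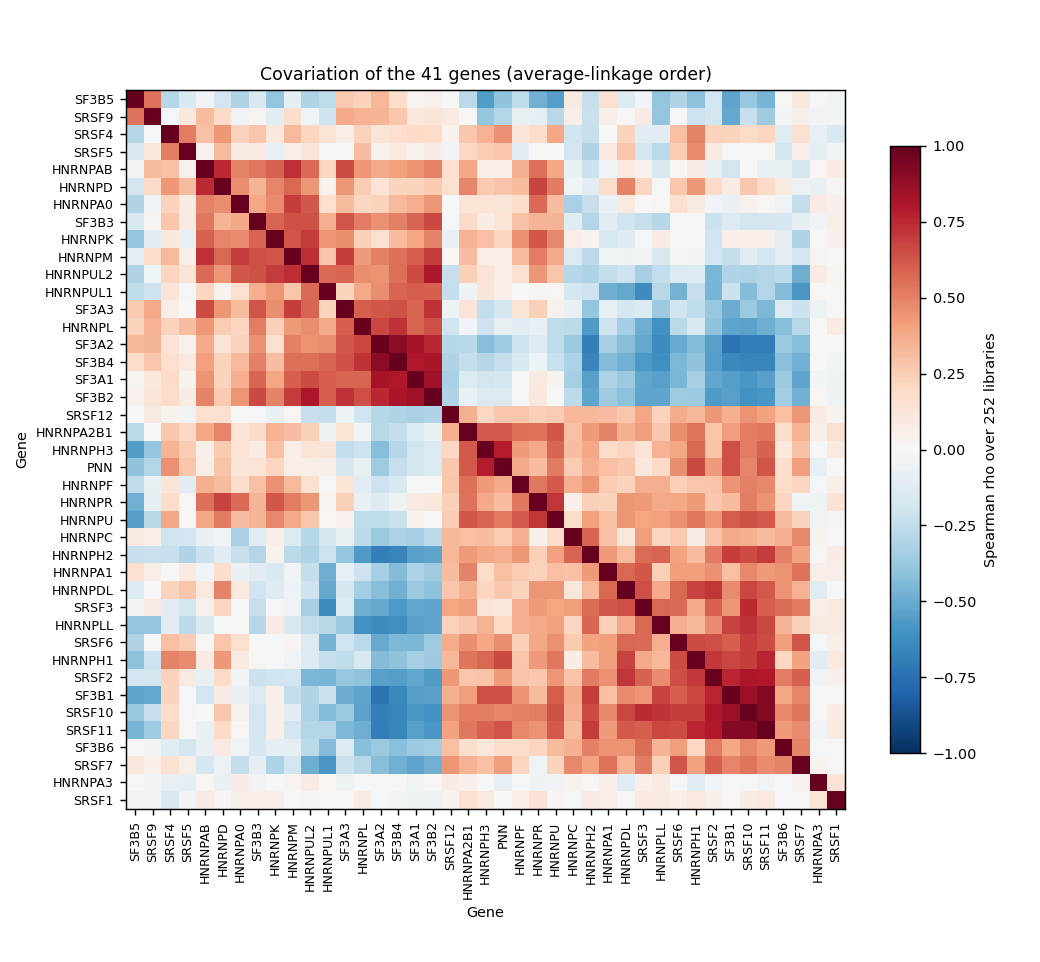
Spearman rho between the levels of each pair of the 41 members over all libraries, both axes listing the genes in average-linkage order (red positive, blue negative). SF3B1, SRSF10 and SRSF11 lie in one red block, SF3A1, SF3A2, SF3B2 and SF3B4 in another, and the rectangle between them is blue.

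The rest of the splicing machinery also changed with day. Of 135 other splicing genes tested, 127 passed the test of any day effect, against 80.4% of all genes, and on day 21 107 passed (79.3%, against 66.4% of all genes), of which 64 were lower and 43 higher. Over all genes 32.8% were lower and 33.6% higher on that day, which is the background of the counts by list. In the list of exon junction complex and SR-related genes, 15 of 22 fell and 3 rose on day 21, with a median log2 fold change of -0.23. The largest fall was that of SREK1 (-0.63 ± 0.05) and the largest rise that of EIF4A3 (0.35 ± 0.02), the helicase that anchors the complex. Of 9 kinases that phosphorylate SR proteins 5 fell and 2 rose (median -0.27), with CLK4 at -1.08 ± 0.07 and SRPK3 at 0.80 ± 0.11 on day 3.

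The snRNP lists were more even. Of 14 U2 snRNP and 3′ splice site genes outside SF3, 6 rose and 6 fell on day 21 (median 0.03). PUF60, which helps U2AF at the polypyrimidine tract, was at 0.38 ± 0.03, and SNRPB2, the U2B″ protein, reached -0.64 ± 0.11 on day 56. Of 25 U5 and U4/U6 snRNP genes 13 rose and 6 fell (median 0.14), with LSM4 at 0.49 ± 0.03 and PRPF38B at -0.62 ± 0.04 on day 14. Of 8 tested U1 snRNP genes and partners 4 rose and 4 fell, from PRPF39 at -0.56 ± 0.07 on day 21 to LUC7L at 1.18 ± 0.15 on day 14. Of 8 Sm ring genes 3 rose and 3 fell, with SNRPG at 0.48 ± 0.16 on day 7 and SNRPF at -0.43 ± 0.13 on day 14. Of 21 Prp19 complex and catalytic step genes 11 fell and 4 rose (median -0.13), and SLU7, a second step factor, was at -0.54 ± 0.05 and PRPF19 at 0.39 ± 0.03. Of 28 other splicing regulators 14 fell and 8 rose (median -0.09), with QKI at -0.58 ± 0.04 and PCBP2 at 0.61 ± 0.14.

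Against NC on the same day, the number of splicing factors called depended on the test. Over the 30 comparisons of a treatment with NC on days 3 to 56, each with 6 and 6 steers, 8 members passed an edgeR adjusted p of 0.1 at least once, against 16.7% of all genes. By DESeq2 29 members passed, with 15 calls for TILD, 12 for OXYT, 10 for CEFT, 8 for ENRO, 5 for TULA and 4 for FLOR, and by edgeR without a filter on low counts 1 passed. The share of all genes passing by DESeq2 is not given here, so the 29 cannot be read as particular to the members. The edgeR test gave 10 calls in 6 comparisons, and 138 of the 1230 tests had an unadjusted p under 0.05. Such tests were most frequent over all genes in CEFT on day 3, with 4807 of 19056 genes and 12 of 41 members. They were least frequent in OXYT on day 14, with 881 genes and 0 members. On day 0, before any administration, edgeR called 0 members (0.00525% of all genes in CEFT, ENRO and TULA, 0.0787% in TILD), and 8 tests had an unadjusted p under 0.05. The comparisons share the 6 NC steers of a day. TULA had 0 member calls by edgeR in 205 tests over the 5 days (at most 0.0105% of all genes on a day), of which 17 had an unadjusted p under 0.05. After a lane adjustment of the counts by ComBat_seq, 0 members passed, and the edgeR adjusted p of these 10 calls lay between 0.104 and 0.474. All 10 kept their direction, with log2 differences after the adjustment of 0.46 for SF3A2 and -0.37 for PNN in ENRO, for example. The adjustment held no term for treatment, so it can also take out treatment differences in groups that shared no lane with NC.

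CEFT on day 3 had 4 members past the threshold (background 10.9%). SF3A2 was at 68.9 to 145.8 CPM in CEFT steers (median 92.7) and 53.3 to 70.2 in NC steers (median 62.9). The ranges overlapped only between 68.9 and 70.2 CPM, and the CEFT steers were otherwise higher (log2 fold change 0.62 ± 0.16, edgeR adjusted p 0.0633). SF3B4 was at 81 to 150.8 CPM (median 105.7) against 65.3 to 83.3 (median 78.7), with 6 of 6 CEFT steers above the NC median (0.46 ± 0.13, edgeR adjusted p 0.0715). Both genes had been higher in the CEFT steers on day 0, by 0.20 and 0.21 (edgeR adjusted p 0.913 each).

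SF3B1 and SRSF7 were lower in CEFT on day 3. SF3B1 was at 284 to 492 CPM (median 396.6) against 440.1 to 598.8 (median 536.8), and the ranges overlapped (log2 fold change -0.47 ± 0.13, edgeR adjusted p 0.0715). SRSF7 was at 77.5 to 98.5 CPM (median 86.4) against 78.3 to 129.7 (median 111.8), again overlapping (-0.35 ± 0.11, edgeR adjusted p 0.0955). The 4 calls depended on single steers: 0 members passed without NC steer 1, 7, 12, 13 or 15 or without CEFT steer 6, 1 without CEFT steer 3 or 5, 2 without CEFT steer 4, 7 without NC steer 5 and 13 without CEFT steer 8. The shares of all genes called in these refits are not given here, so the swing cannot be read as particular to the members. With lane as a term 0 passed, while the log2 differences were 0.60 for SF3A2, 0.51 for SF3B4, -0.33 for SF3B1 and -0.38 for SRSF7.

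In ENRO and OXYT steers PNN was lower on day 3. It was at 47.4 to 64.9 CPM in ENRO (median 56.3) and 59.1 to 98.8 in NC (median 73.2), a log2 fold change of -0.44 ± 0.12 (edgeR adjusted p 0.0932), in a comparison with 3.33% of all genes called. In OXYT it was at 53.1 to 63.1 CPM (median 57.7), -0.40 ± 0.10 (edgeR adjusted p 0.0854), with 3.00% of all genes called. The ranges overlapped in both. On day 0 the differences were 0.03 and -0.09. Neutrophil markers were higher than in NC in both, with medians of their log2 fold changes of 0.83 (ENRO) and 0.56 (OXYT) and 1 of 7 past the threshold in each, and the part of cell composition was not tested.

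FLOR on day 3 had 2 members (background 2.67%). HNRNPLL was at 15.7 to 23.2 CPM (median 18.7) against 22.4 to 29.4 (median 26.8), barely overlapping (-0.48 ± 0.11, edgeR adjusted p 0.0707). SRSF12 was at 0.631 to 1.46 CPM (median 1.13) against 1.33 to 2.57 (median 2.08), also overlapping (-0.87 ± 0.22, edgeR adjusted p 0.0902). On day 0 the differences were -0.28 and 0.01. Without single steers the count was 0 or 1: it was 0 without NC steer 12, 13 or 15 or FLOR steer 3, 6, 7 or 10, and 1 without NC steer 1, 5 or 7 or FLOR steer 4 or 8. The shares of all genes called in these refits are not given here.

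SF3B6 was the only member past the edgeR threshold later than day 3. Its level swung widely between the days of a steer, as described above, and whether the row follows the level of the transcript was not tested. On day 21 it was at 3.24 to 28.9 CPM in NC (median 20.1), 0.117 to 1.87 in OXYT (median 0.917) and 0.0683 to 2.19 in TILD (median 0.867). Neither treated group overlapped NC. The log2 fold changes were -4.12 ± 0.64 (edgeR adjusted p 0.0924, 0.0262% of all genes called) and -4.01 ± 0.63 (edgeR adjusted p 0.0356, 0.504% called), and 0.630% and 1.27% of all genes did not overlap in these comparisons. The NC median of SF3B6 began at 5.55 CPM on day 0, was 24.8 on day 3 and 5.91 on day 7, fell to 2.92 by day 14, and was 20.1 and 8.83 on days 21 and 56. CEFT and FLOR medians were also low on day 21, at 0.732 and 0.852 CPM, but their ranges reached 11.4 and 12.6 CPM and overlapped NC.

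**Figure D5:**
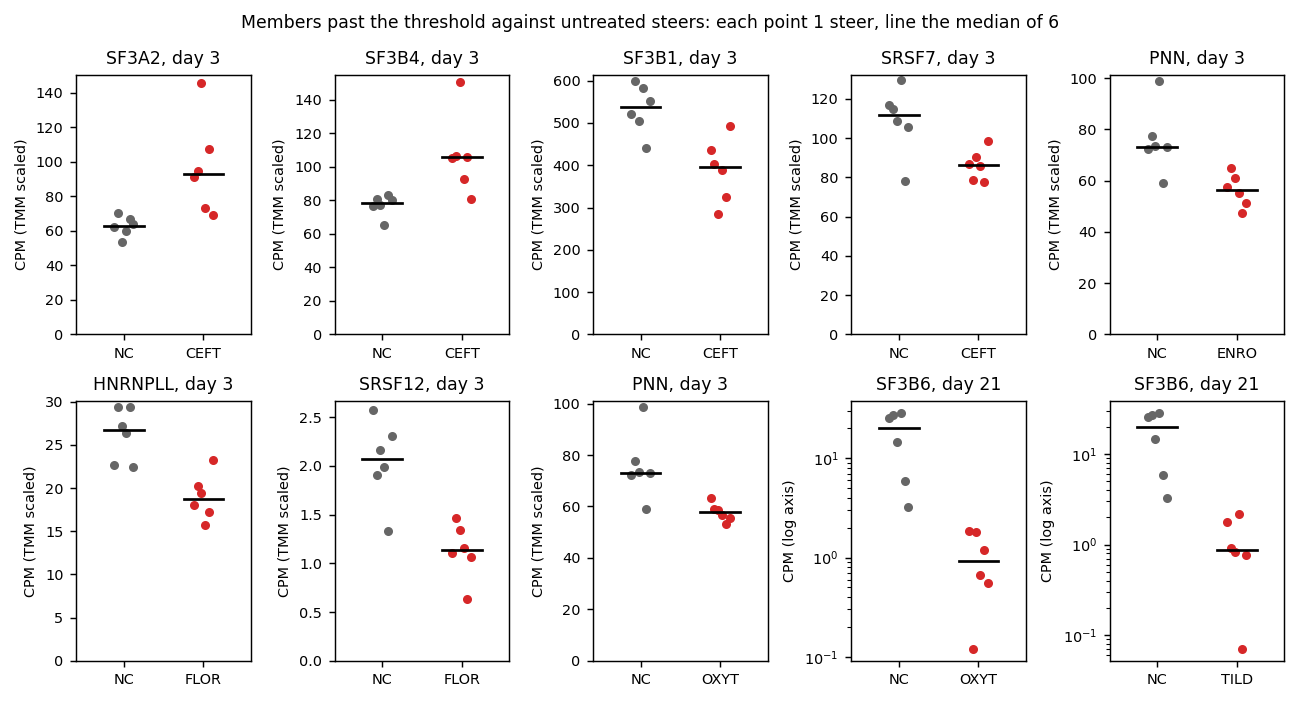
CPM of the members past the threshold against NC, 1 panel for each member, treatment and day, with a point for each steer (6 per group) and a line at the median. Only the panels of SF3B6 on day 21 have treated points that are all below the NC points.

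Averaged over the 6 days, 3 members differed between a treatment and NC (limma voom, steer as random block, adjusted p at or under 0.05), against 9.01% of all genes. HNRNPL was higher in CEFT by 0.14 ± 0.04 (adjusted p 0.0205, 3.42% of genes called) and in TILD by 0.14 ± 0.04 (adjusted p 0.0161, 4.98%). The steer means of HNRNPL were 354.5 to 447.3 CPM in CEFT and 374.4 to 424.8 in TILD, against 350.3 to 372.5 in NC. The share of all genes whose TILD and NC steer means do not overlap is not given here. The gap between TILD and NC can therefore not be read as particular to HNRNPL. HNRNPLL was lower in FLOR, with a log2 difference of -0.33 ± 0.10 (adjusted p 0.0464, 1.56%), and in TILD, with -0.36 ± 0.10 (adjusted p 0.0199). Its steer means were 16.7 to 24.9 CPM in FLOR, 14.4 to 22.7 in TILD and 21.8 to 29.4 in NC, overlapping. HNRNPU was lower in TILD (log2 difference -0.16 ± 0.05, adjusted p 0.0382), with steer means of 333 to 369 CPM against 353.2 to 422.8. Most of these differences were there on day 0, before administration, at 0.13 and 0.16 for HNRNPL and -0.28 and -0.20 for HNRNPLL, whereas HNRNPU differed by -0.03. After ComBat_seq by lane 0 members passed. This adjustment held no term for treatment, and NC shared no lane with CEFT, OXYT, TULA or TILD. For those groups it can take out treatment differences along with lane, so the 0 cannot tell them apart. Over all genes the calls went from 651 to 3 in CEFT and from 949 to 14 in TILD. In ENRO, which shared lane 1 with NC, they went from 82 to 76. In ENRO, OXYT and TULA limma voom called 0 members, with 0.430%, 0.666% and 0.651% of all genes called, and 3, 3 and 7 members had an unadjusted p under 0.05.

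The change from day 0 takes each steer as its own baseline, which takes out what differed on day 0. By the edgeR F test over 5 days, 17 members changed differently in at least 1 treatment than in NC (adjusted p at or under 0.05), against 14.9% of all genes. There were 10 in CEFT (4.65% of genes), 5 in ENRO (8.67%), 6 in OXYT (3.25%), 1 in FLOR (0.861%), 1 in TILD (0.420%) and 0 in TULA (0.0420%; 3 members at an unadjusted p under 0.05, and 0 by voom).

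In ENRO the strongest was PNN (adjusted p 1.84e-04). The log2 difference of its change from that in NC was -0.46 ± 0.14 on day 3 and 0.43 ± 0.14 on day 7. ENRO steers held 56.2 ± 6.4 CPM on day 3 and 92.7 ± 14 on day 7 (SD, n = 6), and NC steers 75.7 ± 12.9 and 67.4 ± 13.2. HNRNPH3 followed the same course (adjusted p 0.00126), with differences of -0.33 ± 0.10 and 0.21 ± 0.10. In OXYT the strongest were HNRNPUL2 (adjusted p 0.0134) and HNRNPR (adjusted p 0.0136). Their changes from day 0 were furthest from those in NC on day 56, by -0.36 ± 0.09 and -0.32 ± 0.10. The changes of HNRNPU, HNRNPK and HNRNPA0 to that day in OXYT were also below those in NC, by -0.31, -0.27 and -0.26. In the comparison of levels with NC on day 56, edgeR called 0 members in OXYT (0.0157% of all genes).

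By limma voom the CEFT result depended on the libraries that stood apart. Leaving them out was chosen after seeing the data and was run by limma voom only, so the edgeR calls were not refitted. Of the 10 CEFT members called by edgeR, SRSF2 (adjusted p 0.0195) and PNN (adjusted p 0.0213) were the strongest. In their change from day 0, SRSF11 and SRSF7 were furthest from NC on day 56 and SF3B4, SF3B1 and PNN on day 3. By limma voom, 6 members passed with all libraries. Without CEFT steer 4 on day 3 and CEFT steer 6 on day 56, 0 passed, and the genes called in the whole table went from 394 to 38. The adjusted p went from 0.0424 to 0.327 for SF3B1, from 0.0319 to 0.245 for SRSF2 and from 0.0278 to 0.117 for PNN. The adjusted p of SF3B3, whose change from day 0 in CEFT was furthest from that in NC on day 14 (-0.27 ± 0.08), went from 0.0421 to 0.0745.

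In TILD the member that changed differently from NC was also SF3B3 (edgeR adjusted p 0.0345). Here too its change was furthest from that in NC on day 14, with a log2 difference of -0.34 ± 0.08. By limma voom its adjusted p was 0.0652 and 0 members passed in TILD (12 at an unadjusted p under 0.05), and without a filter on low counts edgeR also called 0.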

How the data were processed

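Whole blood RNA of 42 steers on 6 days gave 1 library each, grouped by the treatment and day in the labels. Per the labels and methods, the authors trimmed reads with Trimmomatic 0.39, aligned them to ARS-UCD1.3 with HISAT2 and assembled and counted them with StringTie 2.2.0 and prepDE. The deposited values are gene counts without normalization, and every count was a whole number. The methods name default parameters for HISAT2 and StringTie, which set no library strand.

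CPM and tests used TMM scaling in edgeR 4.0.16 (R 4.3.3), on genes above 0.2 CPM in at least 12 libraries. Days were compared by quasi-likelihood tests with steer as a block (adjusted p at or under 0.05, prior count 2). Each treatment was compared with NC within a day by the same test on 12 libraries (adjusted p at or under 0.1). The group effect over 6 days used limma 3.58.1 (voom, steer as a random block, correlation 0.359), and the change from day 0 the treatment-by-day terms of the day model. Adjusted p values are Benjamini-Hochberg over all genes tested in a comparison, and values after ± are SE unless SD is named. Steers pair the libraries: residuals of libraries of 1 steer had a median correlation of 0.342 (-0.082 between steers of a group), above 0.1 in 42 of 42 steers. Alternatives were DESeq2 1.42.0, ComBat_seq (sva 3.50.0), other scalings and filters, single lanes, no block, and steers left out.

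On simulated counts of 3000 genes, 200 of them changed, the day test (day 56 against day 0) recovered 93% of genes changed by a log2 of 0.5, the group effect 24% and a comparison of 6 with 6 libraries 9%. At a log2 of 1 the shares were 98%, 69% and 60%. The spread of the simulated counts was a fixed setting for all genes in each test and was not matched to the members.

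The members and gene lists were chosen with earlier results of these data known, and the list of cell type markers likewise. Named with values were the 8 called members with the largest and the 2 with the smallest change from day 0, up to 4 with the smallest p in each treatment and day with a call, up to 8 in the group effect and 4 in the change from day 0, the members nearest the filter, and the largest rise and fall in each list of other splicing genes. Further members were named as the extremes of their family or after their values were seen. Gene symbols were matched to RefSeq (41 of 41 members), whose tables are on ARS-UCD2.0, so no coordinates are given. Sequences were not used here.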

Additional observations from a re-analysis of the deposited data

Results flagged for a closer look

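Among 18 sets of 6 steers (the treated and NC values of the members past the threshold against NC), 1 held a library far from the others. CEFT steer 4 had 150.8 CPM of SF3B4 on day 3, and the next CEFT steer had 106.5 CPM, a gap of 0.634 of the range of the group against a critical value of 0.625 (Dixon). Chance gives such a gap in about 1 of 20 groups. Without this steer 2 members passed in CEFT on day 3, in place of 4, and the share of all genes called without it is not given here.

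The other results are members whose change from day 0 differed between a treatment and NC by the edgeR F test of the interaction, given by adjusted p. In CEFT these were SRSF2 (0.0195), PNN (0.0213), SF3B1 (0.0258), SF3B3 (0.0305), SF3B2 (0.0369), HNRNPH3 and SRSF11 (0.0424 each), HNRNPA1 (0.0439), SRSF7 (0.0441) and SF3B4 (0.0479). In ENRO they were PNN (1.84e-04), HNRNPH3 (0.00126), SRSF4 (0.00996), HNRNPH1 (0.0289) and HNRNPU (0.0413). In OXYT they were HNRNPUL2 (0.0134), HNRNPR (0.0136), HNRNPK (0.0295), HNRNPA0 (0.0302), HNRNPU (0.0379) and PNN (0.0433). In FLOR there was HNRNPH3 (0.0374) and in TILD SF3B3 (0.0345). PNN and HNRNPH3 each passed in 3 treatments, all compared with the same 6 NC steers.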

How the results depend on the processing

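The number of members called by the effect of day stayed within 1.5 times of 39 under every alternative run, and so did the daily counts under the other scalings, without a filter, by voom and by DESeq2. Within lane 1, 4 members passed on day 3 (25 in all steers), 2 on day 7 (18), 15 on day 14 (30) and 14 on day 21 (36). Lane 2 gave 13 on day 3, and lane 3 gave 13 on day 3 and 9 on day 7. These fits held fewer steers than the main test, with equal numbers in each lane. Lane 1 held all 6 NC steers, the 6 ENRO steers and 2 FLOR steers. The 6 NC steers alone gave 0, 0, 11, 9 and 13 on the 5 days. Without the replicate block that pairs the libraries of a steer, 16 passed on day 3, and the other daily counts stayed within 1.5 times. The group effect gave 26 members without that block in place of 3, 10 without a filter on low counts and 0 after ComBat_seq by lane. Over all genes, 11.3% (ENRO) to 32.7% (TILD) were called in a treatment without the block, and 0.869% (ENRO) to 24.3% (TILD) without the filter. Against NC, 8 members passed in all, 1 without a filter, 0 after ComBat_seq, 1 after ComBat_seq with the likelihood ratio test, 29 by DESeq2 and 1 with lane as a term. For CEFT on day 3 (4 members) these settings gave 0, 0, 0, 9 and 0, and for FLOR on day 3 (2 members) 0, 0, 0, 4 and 0. The call that stayed with lane as a term was PNN in ENRO (adjusted p 0.0183). For treatments that shared no lane with NC, the ComBat_seq counts cannot tell lane from treatment. With 1 steer left out, the counts ran from 0 to 13 in CEFT and from 0 to 1 in FLOR. Shares of all genes called are not given for the fits within lanes, the fits without 1 steer or the daily counts without the block. Those counts cannot be read as particular to the members. The change from day 0 gave 17 members by edgeR and 11 by edgeR without a filter. By voom without the 2 CEFT libraries it gave 10, which differs from the 17 in method as well as in libraries. Within voom, leaving these libraries out took the CEFT calls from 6 to 0. The cause of these shifts was not tested. Of single values, 172 kept direction and call, 106 kept direction but lost the call, 2 gained it and 2 reversed: SF3B6 on day 21 in NC alone (1.67) and HNRNPD on day 14 within lane 1 (0.01).

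With 6 steers a group, a change of log2 0.5 was seldom recovered in simulated counts. Their spread was a fixed setting for all genes and was not matched to the members, whose median coefficient of variation was 12.7% over all libraries. The share recovered for the members is therefore not known. A member that was not called against NC on a day still cannot be taken as equal to NC.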

Other observations

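Some members share genome with another gene in the RefSeq annotation of ARS-UCD2.0, and since the default settings of the counting set no library strand, their counts are uncertain to that extent. Over all libraries HNRNPUL1 rose and fell with TGFB1, which it overlaps (Spearman rho 0.60), HNRNPDL with ENOPH1 (0.25) less so, and SRSF2 with METTL23 hardly (0.09). HNRNPA0 and KLHL3 (-0.17) and HNRNPA1 and NFE2 (-0.34) were opposed.

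Neighbours within 3000 bases that do not overlap also varied with members. SRSF11 went with LRRC40 (0.85), SRSF10 with PNRC2 (0.75), SF3B2 with PACS1 (0.74) and SRSF9 with GATC (0.49), whereas HNRNPUL2 and TTC9C (-0.01) and HNRNPAB and PHYKPL (0.07) varied apart. The libraries share steers and days, and these values carry no test.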
